A study of Homo sapiens with 2 samples.

Results

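The HOX cluster genes are the features whose symbol is HOXA, HOXB, HOXC or HOXD followed by a number only. Of 32738 genes counted, 40 met this rule, with 11 in HOXA, 10 in HOXB, 10 in HOXC and 9 in HOXD. They carry 39 symbols, because HOXC4 is listed under 2 Ensembl identifiers. Expression was measured by droplet-based single-cell RNA sequencing in nonadherent cells from day 5 of an endothelial-to-hematopoietic transition (EHT) culture of the human induced pluripotent stem cell line iPS11. The cultures had been plated without coating, on VCAM1, on DLL4 or on DLL4+VCAM1, where DLL4 is a notch ligand and VCAM1 an adhesion molecule. All 4 conditions came from 1 cell line and shared medium and time, and nothing in the labels describes a genetic change. Cells from 3 wells of a condition were combined, stained with 1 of 4 hashtag antibodies (0252, 0253, 0254 and 0255) and captured together as 1 library. No source used here ties a hashtag to its coating, so hashtags are given by number, and they are 4 different cultures rather than replicates.

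HOX genes encode homeodomain transcription factors that lie in 4 clusters and are numbered by their order along the cluster. Low-numbered (anterior) genes are activated earlier and closer to the head during development, and high-numbered (posterior) genes later and closer to the tail, so the set a cell expresses records where it came from. In blood, HOX proteins act with cofactors of the PBX and MEIS families, and genes in the middle of HOXA and HOXB are known for their expression in stem and progenitor cells and its loss in maturing cells.

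Cells were described by marker gates, each a minimum of unique molecular identifiers (UMIs) of genes outside the HOX clusters. Of 10836 barcodes, 8488 were called for a single hashtag and 7550 passed the limits of 36000 UMIs, 6000 genes and 18% mitochondrial UMIs. They held 142110950 UMIs, with a median of 18318.5 per cell. The CD34/GATA2 gate held 2339 cells, the SPINK2 gate 646, the C1Q (macrophage) gate 635, the globin gate 338, the ELANE (neutrophil granule) gate 108, the collagen gate 86 and the PF4/PPBP (platelet chemokine) gate 9. A further 107 cells passed more than 1 lineage gate and 3282 passed none. The CD34/GATA2 and SPINK2 gates are called the progenitor gates, with 2985 cells. Median UMIs per cell ranged from 13133 in the ELANE gate to 22088.5 in the SPINK2 gate, and median mitochondrial shares from 9.46% (collagen) to 14.1% (PF4/PPBP).

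Markers that no gate used were higher in each lineage gate than in the progenitor gates. At least 2-fold higher were 6 of 6 smooth muscle and matrix markers in the collagen gate, where their summed level was 8044 against 9.93 UMIs per 1000000 (CPM). The same held for 4 of 4 granule markers in the ELANE gate (36632 against 631.0 CPM) and 4 of 4 macrophage markers in the C1Q gate (426.8 against 33.2 CPM). It also held for the 4 erythroid markers of 5 that were abundant enough to compare in the globin gate (215.9 against 23.1 CPM) and for 3 platelet markers of 4 in the PF4/PPBP gate (1835 against 181.4 CPM). The progenitor list (KIT, MYB, CYTL1, SPN) summed to 585.6 CPM in the CD34/GATA2 gate and 446.3 CPM in the SPINK2 gate, but also to 725.6 CPM in the ELANE gate and 627.4 CPM in the globin gate. These 4 markers therefore did not set the progenitor gates apart from those gates.

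HOXB supplied most of the HOX transcripts. Kept cells held 20788 HOX UMIs, of which 18572 (89.3%) came from HOXB, 1971 (9.48%) from HOXA, 173 (0.832%) from HOXC and 72 (0.346%) from HOXD. Since the assay counts 3′ ends, levels in CPM were not scaled by transcript length. Reads that fit more than 1 gene are not counted, so comparisons of levels between genes are approximate. Where a 95% interval is given below, it covers counting error only, as no replicate exists and no p-value was computed. Many levels are given without an interval, among them most values within hashtags, the marker sums and the genes of other lists.

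The expressed genes formed a run within each of the first 2 clusters. HOXB2 through HOXB9 were all detected with at least 200 UMIs, and HOXB1 and HOXB13 at the ends of the cluster had none. In HOXA, HOXA7, HOXA9 and HOXA10 reached 200 UMIs and the other 8 genes had at most 39 (HOXA5). No HOXC or HOXD gene reached 200 UMIs, and HOXC6 with 100 had the most. The 7 features without a UMI were HOXB1, HOXB13, both HOXC4 entries, HOXC13, HOXD12 and HOXD13. At a bound of 3 counts over all kept cells, 0 UMIs allow a level of up to 0.0211 CPM. That bound does not hold for HOXC4, which is listed under 2 identifiers and shares exons with HOXC6. Its reads may have been left uncounted.

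**Figure D1:**
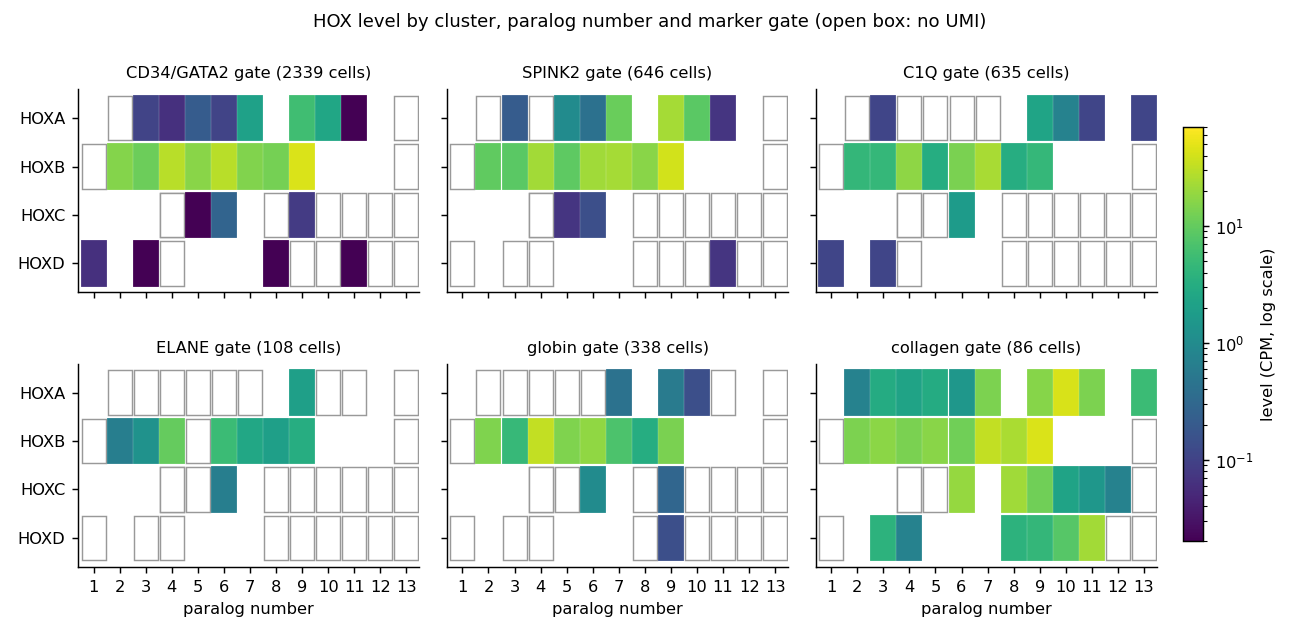
Level of each HOX gene (color, CPM on a log scale, with values under 0.02 CPM drawn at the end of the scale) by cluster (rows) and paralog number (columns) in 6 marker gates. An open box is a gene without a UMI in that gate and a gap is a position with no gene or one not shown; HOXB2 to HOXB9 fill the HOXB row in every gate except ELANE, where HOXB5 had none, and HOXC and HOXD fill in the collagen gate.

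On the GRCh37 (hg19) annotation the HOXB genes span 200 kb of chromosome 17, from 46605888 to 46806112, and the HOXA genes 107 kb of chromosome 7, from 27132612 to 27239710. HOXC spans 117 kb of chromosome 12 (54332615 to 54449814) and HOXD 98 kb of chromosome 2 (176957449 to 177055635). Some of these genes share exons on the same strand, and reads that fit both are not counted by the method used. HOXB3 overlaps exons of HOXB4 and HOXB6, HOXA9 and HOXA10 both overlap a readthrough gene, HOXC6 overlaps HOXC4 and HOXC9, and HOXD10 overlaps HOXD11, so the levels of these genes are uncertain to that extent.

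The order of HOX levels in the pool did not follow paralog number. HOXB9 was highest at 30.8 CPM (29.9 to 31.7), then HOXB4 at 23.9 (23.1 to 24.7), HOXB6 at 20.2 (19.5 to 21.0) and HOXB7 at 15.5 (14.8 to 16.1). HOXB2, HOXB5 and HOXB8 followed with intervals that overlapped, at 11.0 (10.5 to 11.6), 10.4 (9.91 to 11.0) and 10.1 CPM (9.61 to 10.7). HOXB3 at 8.7 CPM (8.22 to 9.2) and HOXA9 at 7.1 CPM (6.67 to 7.55) came below them, and HOXA10 at 3.21 CPM (2.92 to 3.52) and HOXA7 at 2.72 CPM (2.45 to 3.0) were lowest of the 11. A level of 2 CPM or more was reached by these 11 genes in the pool and in the progenitor gates. It was reached by 25 HOX genes in at least 1 gate, and all 25 reached it in the collagen gate. That gate is small, and 3 UMIs in it were already 2.24 CPM. HOXA4 and HOXC10 reached the level there with 3 UMIs each. The count of 25 is a description only, with no share of all genes given beside it.

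HOX transcripts were most frequent, among blood cells, in the progenitor gates. Summed over all HOX genes, the level was 184.7 CPM (180.9 to 188.6) in the CD34/GATA2 gate and 196.8 CPM (189.6 to 204.2) in the SPINK2 gate. It was 111.1 CPM (103.4 to 119.2) in the globin gate, 80.3 CPM (74.7 to 86.3) in the C1Q gate and 27.7 CPM (20.1 to 37.3) in the ELANE gate. The 9 cells of the PF4/PPBP gate held 9 HOX UMIs, which gives 47.9 CPM (21.9 to 90.9). A HOXB UMI was seen in 88.3% of CD34/GATA2 cells (87.0 to 89.6, exact Clopper-Pearson interval), 79.9% of globin cells (75.2 to 84.0), 55.6% of C1Q cells (51.6 to 59.5) and 27.8% of ELANE cells (19.6 to 37.2). With each cell thinned to 5000 UMIs, which left out at most 3 cells of any of these gates, the shares were 52.8, 39.8, 29.0 and 13.2% and kept that order.

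The 2 progenitor gates differed in summed HOXA and hardly in summed HOXB. The summed HOXA level was 44.7 CPM (41.3 to 48.4) in the SPINK2 gate and 10.7 CPM (9.85 to 11.7) in the CD34/GATA2 gate, a 4.16-fold difference (3.7 to 4.68). HOXB summed to 151.8 CPM (145.5 to 158.3) and 173.5 CPM (169.8 to 177.2), a ratio of 0.875 (0.834 to 0.918). HOXA thereby made up 22.7% of the HOX UMIs in SPINK2 cells and 5.82% in CD34/GATA2 cells. SPINK2 itself encodes a serine protease inhibitor, is a marker of early lymphomyeloid progenitors and was used only to choose the cells.

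The 3 HOXA genes behind this difference lie next to each other on chromosome 7, and their promoters are shown because these genes were higher together. Each line gives the 250 bases before the RefSeq transcript start (RefSeq on GRCh38.p14, located in GRCh37 by an exact and unique match), 5′ to 3′ on the minus strand. Capitals mark TATAAA or TTTATG, the latter a motif of the caudal (CDX) proteins that act upstream of HOX genes, on either strand. HOXA7 lies at chr7:27196295-27196544, HOXA9 at chr7:27205157-27205406 and the first start of HOXA10 at chr7:27219481-27219730.
HOXA7: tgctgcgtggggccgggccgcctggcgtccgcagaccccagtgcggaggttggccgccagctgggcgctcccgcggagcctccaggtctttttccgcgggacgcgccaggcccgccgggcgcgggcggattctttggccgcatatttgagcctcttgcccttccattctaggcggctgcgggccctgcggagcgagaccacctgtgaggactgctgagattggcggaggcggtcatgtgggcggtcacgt
HOXA9: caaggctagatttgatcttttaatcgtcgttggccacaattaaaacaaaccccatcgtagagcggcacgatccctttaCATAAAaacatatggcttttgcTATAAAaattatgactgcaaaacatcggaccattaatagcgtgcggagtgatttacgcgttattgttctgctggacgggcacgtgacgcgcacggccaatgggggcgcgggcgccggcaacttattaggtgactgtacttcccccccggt
HOXA10: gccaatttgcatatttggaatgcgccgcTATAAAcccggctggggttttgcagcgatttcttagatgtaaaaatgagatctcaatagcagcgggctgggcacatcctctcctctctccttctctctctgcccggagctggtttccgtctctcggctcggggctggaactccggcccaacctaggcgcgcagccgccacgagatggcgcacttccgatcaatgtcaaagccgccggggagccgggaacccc
The windows of HOXA9 and HOXA10 held TATAAA 150 and 222 bases before the start, and that of HOXA9 also held CATAAA, the reverse of TTTATG, 172 bases before it. None of the 3 held TGACAG (a MEIS motif) or TGATTTAT (a PBX-HOX motif). Among 35116 RefSeq promoters of this length, 10.7% held TATAAA, 9.64% TTTATG, 13.0% TGACAG and 0.752% TGATTTAT, counting both strands. The HOXA7 window held none of the 4 and was 70.8% G and C, against 48.8% for HOXA9 and 58.8% for HOXA10. The table had an entry for 20 of the 39 symbols.

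HOXA7, HOXA9 and HOXA10 were each higher in the SPINK2 gate within every hashtag. HOXA9, a leukemia oncogene needed for stem cell function, was at 36.3, 16.5, 21.7 and 16.0 CPM in SPINK2 cells of hashtags 0252, 0253, 0254 and 0255. In CD34/GATA2 cells it was at 5.57, 4.7, 5.73 and 7.17 CPM, so the ranges of the 4 cultures did not overlap. HOXA7 was at 16.1, 9.36, 10.1 and 7.6 CPM in SPINK2 cells and at 1.65, 1.72, 2.36 and 2.82 CPM in CD34/GATA2 cells. HOXA10, which regulates myeloid and erythroid differentiation, was at 11.4, 7.58, 7.91 and 7.1 CPM against 2.68, 2.5, 2.36 and 2.59 CPM. The ranges of HOXA7 and HOXA10 did not overlap between the gates either. The share of all genes with ranges apart in this way is not given, so this is a description only.

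The pooled ratios of SPINK2 over CD34/GATA2 cells were 5.34 for HOXA7 (4.13 to 6.93), 4.14 for HOXA9 (3.52 to 4.88) and 3.4 for HOXA10 (2.63 to 4.4). Of the 11 HOX genes with a mean level of at least 2 CPM over both gates, these 3 were at least 2-fold higher and none was 2-fold lower. Over all genes compared, 2.50% were at least 2-fold higher and 3.49% at least 2-fold lower. The median log2 ratio of the 11 was -0.137, against 0.0503 for all genes, because the HOXB genes lay on either side of 1. HOXB2 had a ratio of 0.612 (0.506 to 0.735) and HOXB5 of 0.568 (0.47 to 0.683), both under 1 in every hashtag, while HOXB7 had a ratio of 1.56 (1.37 to 1.78) and was over 1 in every hashtag. HOXB4 (0.769, 0.679 to 0.868) and HOXB6 (0.757, 0.668 to 0.856) were also under 1 in every hashtag. HOXB3 (0.775), HOXB8 (1.27) and HOXB9 (0.909) were over 1 in some hashtags and under 1 in others.

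**Figure D2:**
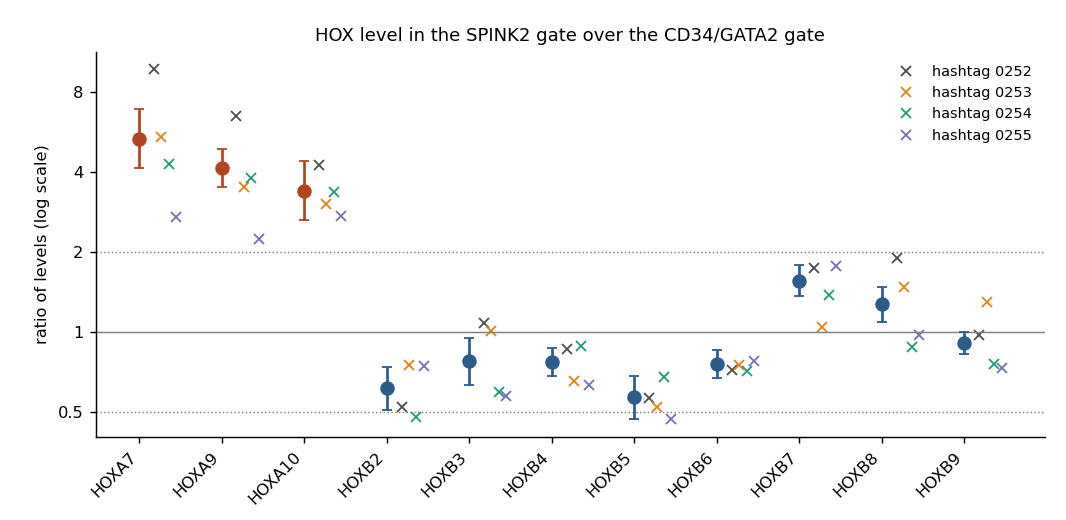
Ratio of the level in the SPINK2 gate over that in the CD34/GATA2 gate (log scale) for the 11 HOX genes with at least 200 UMIs. Dots with bars are pooled cells with 95% counting intervals (HOXA in red, HOXB in blue), crosses are the 4 hashtags, the solid line is a ratio of 1 and dotted lines are 2-fold differences. HOXA7, HOXA9 and HOXA10 lie above 2 in each hashtag and the HOXB genes between 0.4 and 2.

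The HOXA difference was narrower among cells of low mitochondrial share. In cells with 10 to 14% mitochondrial UMIs (472 SPINK2 and 1151 CD34/GATA2 cells) the HOXA ratio was 4.2, and with 14 to 18% (111 and 1109 cells) it was 4.15. In the 63 and 79 cells with at most 10% it was 1.47, from 39.7 CPM (30.6 to 50.7) and 27.0 CPM (19.8 to 35.8). In these cells HOXA9 had a ratio of 1.08, HOXA10 of 2.32 and HOXA7 of 3.09. The difference was thus about as wide as the pooled 4.16-fold in both larger bands and narrower in the smallest. The hashtags differed too, with ratios of 6.52, 3.78, 3.72 and 2.39 in the order above.

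SPINK2 and CD34/GATA2 cells also differed in markers of other blood cells. Among 6 mast cell and eosinophil markers, 5 were abundant enough to compare and all 5 were at least 2-fold lower in the SPINK2 gate, where the list summed to 28.8 CPM against 434.8 CPM. Platelet markers summed to 82.4 against 210.5 CPM, erythroid markers to 7.14 against 27.8 CPM, granule markers to 463.1 against 680.4 CPM and endothelial markers (4 of 5 found) to 21.3 against 37.7 CPM. Macrophage markers summed to 45.5 against 29.6 CPM, lymphoid markers to 69.8 against 63.6 CPM and matrix markers to 8.75 against 10.3 CPM. The close lymphoid sums hide opposite differences, as 1 of 3 compared was at least 2-fold higher and 1 lower. CD3E was at 36.8 against 6.94 CPM and CD7 at 19.9 against 40.6 CPM. Most of the endothelial sum was ESAM, at 17.3 against 32.7 CPM, while CDH5, KDR and CLDN5 were under 2 CPM in both gates. AHSP, GP1BB and DCN were at 0 in both gates. The part of these markers in the HOXA ratio was not tested.

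Across cells outside the lineage gates, HOXA was higher in each successive class of SPINK2 count. Cells with 0, 1 to 2, 3 to 4, 5 to 9 and 10 or more SPINK2 UMIs (3759, 1338, 524, 514 and 132 cells) had summed HOXA levels of 6.21, 15.5, 26.5, 42.9 and 51.7 CPM. The classes from 5 SPINK2 UMIs up are the SPINK2 gate itself. HOXB summed to 145.8, 116.9, 130.7, 151.9 and 151.6 CPM in the same classes and showed no such order. Single HOXB genes differed, HOXB7 going from 13.8 CPM in the first class to 22.9 CPM in the last and HOXB2 from 13.8 to 6.63 CPM. HOXA9 went from 3.44 CPM (3.01 to 3.91) in the first class to 26.2 CPM (20.7 to 32.7) in the last, and HOXA7 from 0.829 CPM (0.627 to 1.08) to 14.3 CPM (10.3 to 19.2). The median UMIs per cell were also higher in each class, from 17540 to 23123, while levels in CPM are relative to that total.

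**Figure D3:**
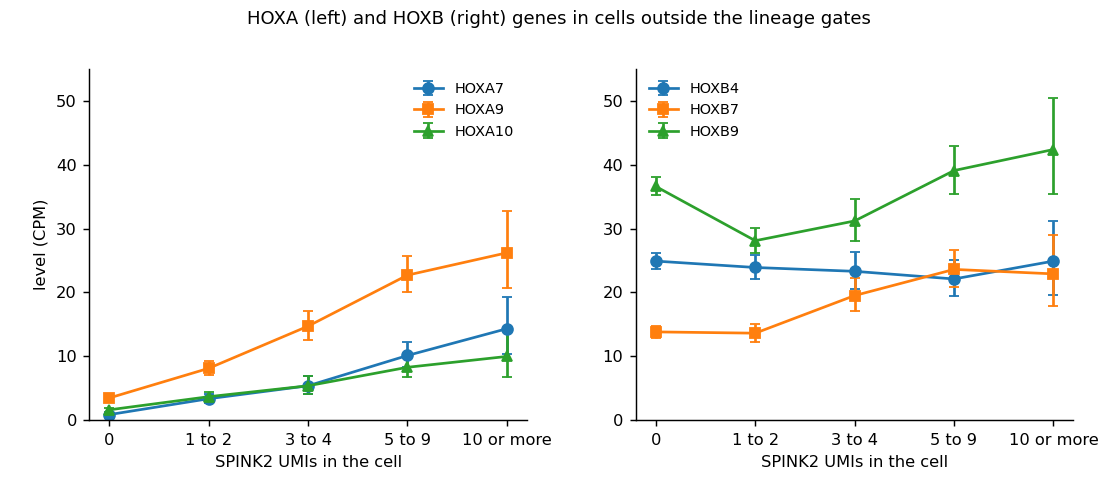
Level (CPM, with 95% counting intervals) of 3 HOXA genes (left) and 3 HOXB genes (right) in cells outside the lineage gates, by the number of SPINK2 UMIs in the cell. The HOXA genes are higher in each class, HOXA9 reaching 26.2 CPM. HOXB4 stays between 22.1 and 24.9 CPM, while HOXB7 goes from 13.8 CPM in the first class to 22.9 CPM in the last. HOXB9 goes from 36.6 to 42.4 CPM, with 28.1 CPM in the second class.

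A HOXA UMI was found in 43.7% of SPINK2 cells (39.8 to 47.6) and 15.0% of CD34/GATA2 cells (13.6 to 16.5), and after thinning in 18.4% and 4.75%. Free RNA in droplets can add to such shares, and its part was not tested. The lowest share among the larger gates was 2.07% of globin cells (0.837 to 4.22), at a median of 19787.5 UMIs. Both progenitor gates were above that share. Cells with 3 or more HOXA genes detected made up 4.8% of SPINK2 cells and 0.299% of CD34/GATA2 cells, and the highest number in 1 cell was 5. Of HOXB, a CD34/GATA2 cell had a median of 2 genes detected and at most 8.

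C1Q cells carried fewer HOX transcripts, but not of every gene. C1Q is the recognition component of complement and is made by macrophages. The summed HOX level in the progenitor gates, 187.5 CPM, was 2.33 times that of the C1Q gate (2.17 to 2.52), and the ratio was 2.33, 2.39, 2.26 and 2.3 within hashtags 0252 to 0255. Of 11 HOX genes compared, 9 were at least 2-fold lower in C1Q cells and none was 2-fold higher, where 10.4% of all genes were lower and 12.0% higher. The median log2 ratio of the 11 was -2.04, against -0.0993 for all genes. All of HOXA7, HOXA9 and HOXA10 were among the 9, as were HOXB2, HOXB3, HOXB5, HOXB6, HOXB8 and HOXB9. HOXA7 and HOXA10 were under 2 CPM in C1Q cells and were abundant enough to compare only through the progenitor gates.

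Within HOXB, HOXB9 had the lowest and HOXB7 the highest ratio of C1Q over progenitor cells, although they are close neighbors in the cluster. HOXB9 was at 3.88, 1.53, 7.3 and 6.48 CPM in the C1Q cells of the 4 hashtags and at 44.3, 35.6, 43.6 and 48.3 CPM in progenitor cells, 9.31-fold lower in C1Q cells (6.9 to 12.9). HOXB7 was at 27.2, 25.7, 17.9 and 25.3 CPM in C1Q cells and at 16.8, 14.2, 17.6 and 19.6 CPM in progenitor cells, a ratio of 1.41 (1.22 to 1.63) and never below 1 within a hashtag. HOXB4 was lower in C1Q cells by 1.58 times (1.35 to 1.87), with 17.6 CPM against 28.0 CPM. HOXA7 had no UMI in C1Q cells against 4.09 CPM in the progenitor gates, which makes it at least 12.7-fold lower at a floor of 3 counts over the gate. In C1Q cells HOXB7 was thus the highest HOX gene at 24.0 CPM (20.9 to 27.3), followed by HOXB4 and HOXB6.

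ELANE cells had the lowest summed HOX level, with an interval that overlapped that of the 9 PF4/PPBP cells. ELANE encodes neutrophil elastase, a granule protease of promyelocytes. The summed HOX level was 6.77-fold lower than in the progenitor gates (5.02 to 9.35), from 43 HOX UMIs in 108 cells, and within hashtags it was 6.15-, 7.34-, 6.06- and 8.13-fold lower. All 10 HOX genes compared were at least 2-fold lower in ELANE cells, against 9.68% of all genes lower and 11.3% higher. The median log2 ratio of the 10 was -2.76, against 0.0273 for all genes. In ELANE cells 6 of the 10 (HOXA7, HOXA9, HOXB2, HOXB3, HOXB5 and HOXB8) were under 2 CPM and entered only through the progenitor gates, so the count of 10 supports nothing about them. HOXA7 had no UMI and was at least 2.12-fold lower at a floor of 3 counts, but the upper end of its 95% counting interval, a ratio of 0.585, was less than 2-fold lower. HOXB4 kept the highest level with 10.3 CPM (5.89 to 16.7) from 16 UMIs, and HOXB5 had none, at least 7.7-fold lower. Most ELANE cells belonged to hashtags 0252 and 0253, with 59 and 36 cells against 7 and 6, so the other ratios rest on few cells.

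In globin cells HOXB7, HOXB8 and HOXB9 had lower pooled ratios to the progenitor gates than HOXB2, HOXB4 and HOXB5. The order was not strictly by position. In the globin gate HOXB2 was at 14.4 CPM (11.7 to 17.5), HOXB4 at 33.2 (29.1 to 37.8) and HOXB5 at 14.5 (11.9 to 17.7), with ratios to the progenitor gates of 1.01, 1.19 and 0.977 and intervals that, for HOXB2 and HOXB5, included 1. HOXB7, HOXB8 and HOXB9 were at 6.99, 3.14 and 13.7 CPM, which was 2.43-, 4.32- and 3.13-fold lower than in the progenitor gates. HOXB6 in between was 1.54-fold lower, and 1.15-, 1.25-, 3.33- and 1.72-fold lower within hashtags 0252, 0253, 0254 and 0255. HOXB5 had ratios of 1.06, 1.16, 0.769 and 0.621 in these hashtags. HOXB3, despite its low number, was 2.26-fold lower. Platelet markers were also higher in globin cells, summing to 1172 CPM against 181.4 CPM in the progenitor gates with 3 of 3 compared at least 2-fold higher, and their part in these ratios was not tested. HOXA was nearly absent from globin cells, with 8 UMIs in all and 1.14 CPM (0.492 to 2.25), 16.2-fold below the progenitor gates.

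Of 11 HOX genes compared, 7 were at least 2-fold lower in globin cells and none higher, where 5.92% of all genes were lower and 4.86% higher. They were HOXA7, HOXA9, HOXA10, HOXB3, HOXB7, HOXB8 and HOXB9, and the median log2 ratio of the 11 was -1.28 against -0.134. The 3 HOXA genes were under 2 CPM in globin cells and entered only through the progenitor gates, so 3 of the 7 had to differ. HOXB7, HOXB8 and HOXB9 were lower within each hashtag. HOXB4 was higher in globin cells in each hashtag by 1.01 to 1.56 times, and HOXB2 was lower in hashtag 0252 (0.596) and higher in the other 3 (1.25 to 1.27). The PF4/PPBP gate of 9 cells was too small for such an account, with 1 of 10 HOX genes (HOXB9, 10.6 CPM) at least 2-fold lower and none higher, against 10.7% and 17.5% of all genes.

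**Figure D4:**
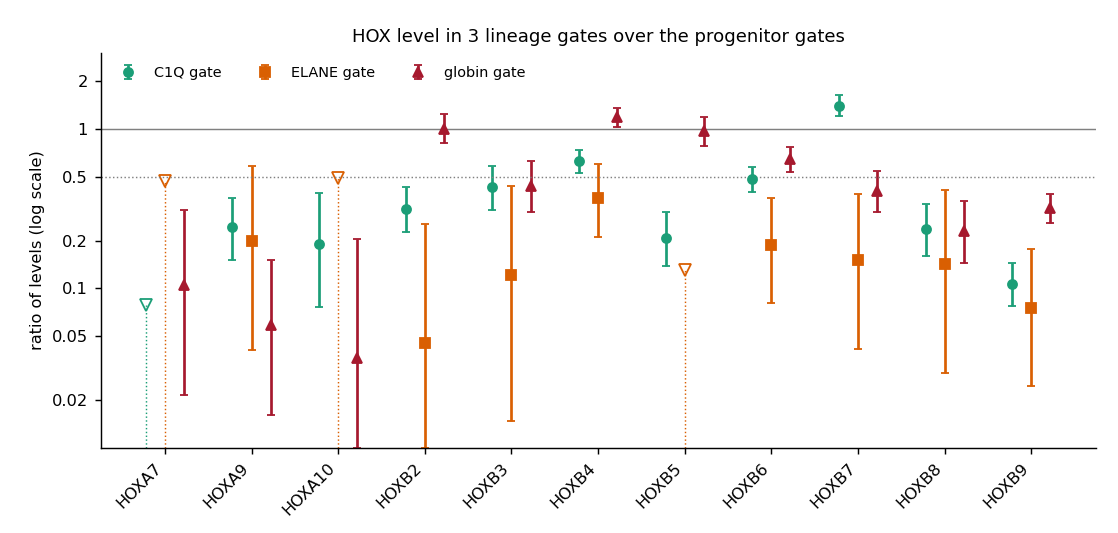
Ratio of the level in the C1Q, ELANE and globin gates over that in the progenitor gates (log scale) for 11 HOX genes, with 95% counting intervals drawn no lower than the axis. An open triangle is the bound at 3 counts for a gene without a UMI in that gate, the solid line a ratio of 1 and the dotted line a 2-fold lower level. HOXB7 in C1Q cells and HOXB4 in globin cells lie above 1 with their whole interval, and the ELANE values and bounds lie below 0.5, some with intervals that reach above it.

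Cells of the collagen gate carried a different HOX code from the blood cells. These 86 cells expressed collagen I and III with smooth muscle genes such as ACTA2 and TAGLN, and 49 of them came from hashtag 0255 (3.12% of its cells, against 0.468 to 0.866% of the others). Their summed HOX level was 378.7 CPM (346.5 to 413.1), 2.02 times that of the progenitor gates. HOXB was at 175.2 CPM (153.5 to 199.1), which differed from the 168.5 CPM of the progenitor gates by less than its counting interval. HOXA was at 102.9 CPM (86.4 to 121.6), 5.57-fold higher. HOXC at 57.4 CPM (45.3 to 71.7) was 171.8-fold higher and HOXD at 43.2 CPM (32.8 to 55.9) 388.2-fold higher, since in the progenitor gates the 2 clusters were at 0.334 and 0.111 CPM.

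HOXC and HOXD UMIs were found in the collagen cells of each culture. Hashtags 0252, 0253, 0254 and 0255 held 10, 11, 16 and 49 such cells, so the values within hashtags rest on few cells. HOXC was at 81.9, 60.0, 65.8 and 43.5 CPM in collagen cells of hashtags 0252, 0253, 0254 and 0255, and HOXD at 71.7, 54.5, 41.1 and 31.8 CPM. In progenitor cells of the same hashtags HOXC was between 0.161 and 0.417 CPM and HOXD between 0 and 0.266 CPM, with no overlap. A HOXC or HOXD UMI was found in 57.0% of collagen cells (45.8 to 67.6) and 1.17% of blood cells (0.936 to 1.44), here all kept cells outside the collagen and mixed gates. After thinning the shares were 34.6 and 0.302%.

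Several posterior genes, and HOXC8 from the middle of its cluster, were prominent in the collagen gate. HOXD11 was at 22.4 CPM from 30 of its 33 UMIs in all kept cells, and HOXC8 at 21.6 CPM from 29 of its 36. In collagen cells of the hashtags HOXD11 was at 35.8, 27.3, 30.2 and 11.7 CPM (7, 5, 11 and 7 UMIs). HOXC8 was at 30.7, 32.7, 19.2 and 16.7 CPM (6, 6, 7 and 10 UMIs). Among progenitor cells HOXC8 had no UMI and HOXD11 had 2, all in hashtag 0255. Both genes pattern the trunk or limbs in development. HOXA10 was at 43.2 CPM (32.8 to 55.9), HOXA11 at 14.2 CPM (8.53 to 22.1) and HOXA13 at 5.22 CPM (2.1 to 10.8). HOXA9 was at 15.7 CPM (9.69 to 23.9), an interval that included its 23.5 CPM in SPINK2 cells. In blood cells HOXA11 and HOXA13 had 9 and 3 UMIs in all. The last genes with a UMI in their clusters, in collagen cells as in all kept cells, were HOXA13, HOXB9, HOXC12 and HOXD11. For HOXC this rests on 1 UMI of HOXC12, with 2 of HOXC11, 3 of HOXC10 and 16 of HOXC9 in collagen cells.

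Of 19 HOX genes compared between the collagen and progenitor gates, 10 were at least 2-fold higher in collagen cells and 2, HOXB4 and HOXB6, at least 2-fold lower. Over all genes, 19.5% were higher and 14.2% lower. The 10 were HOXA7, HOXA10, HOXA11, HOXA13, HOXC6, HOXC8, HOXC9, HOXD9, HOXD10 and HOXD11, most of which were abundant enough to compare only through the collagen gate, so their number supports nothing. HOXA10 was 11.0-fold higher (8.15 to 14.8), between 10.4 and 13.4 within hashtags. HOXC8, HOXD10, HOXA13 and HOXD9 had no UMI in the progenitor gates and were at least 452.9-, 171.8-, 109.3- and 93.7-fold higher, at a floor of 3 counts over those gates. HOXD11 was 702.8-fold higher (178.3 to 6069), against 2 UMIs in the progenitor gates. HOXB4 at 13.4 CPM and HOXB6 at 11.9 CPM were 2.08-fold (1.31 to 3.52) and 2.31-fold lower (1.42 to 4.05), from 18 and 16 UMIs. Within hashtags 0252, 0253, 0254 and 0255 HOXB4 was 1.36-, 1.31-, 2.08- and 3.18-fold lower. HOXB6 had no UMI in collagen cells of 0252 and was 1.47-, 3.78- and 1.74-fold lower in the others. HOXB7, HOXB8 and HOXB9 were at 33.5, 24.6 and 44.0 CPM.

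HOXC6 was the one HOXC gene spread over blood cells. It gave 71 of the 86 HOXC UMIs of blood cells, but 26 of 77 in the collagen gate, where HOXC8 gave 29. In blood cells HOXC8 gave 3. In C1Q cells HOXC6 was at 1.71 CPM from 16 UMIs and in globin cells at 0.998 CPM from 7, against 0.239 CPM from 15 UMIs in the progenitor gates. The ratio of C1Q over progenitor cells was 7.17 (3.32 to 15.6), at levels under the 2 CPM used for counts of genes. The other HOXC genes and all HOXD genes had at most 7 UMIs each in blood cells.

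By hashtag, several HOX genes differed over all kept cells. HOXB8 was at 7.97, 5.95, 13.1 and 15.1 CPM in hashtags 0252, 0253, 0254 and 0255, HOXB9 at 27.0, 20.1, 38.2 and 41.8 CPM and HOXB3 at 5.91, 6.66, 11.4 and 12.1 CPM. Each of these was lower in 0252 and 0253 than in 0254 and 0255, with ratios of the highest over the lowest hashtag of 2.54 (2.16 to 3.0), 2.08 (1.9 to 2.28) and 2.05 (1.73 to 2.42). HOXA9 had another order, with 9.62, 4.94, 6.54 and 7.12 CPM and a ratio of 1.95 (1.63 to 2.33), and HOXA7 had a ratio of 1.89 (1.41 to 2.56). HOXB4 was at 23.1, 22.8, 24.9 and 25.1 CPM, a ratio of 1.1 (0.996 to 1.22), and was the most even of the 11. HOXB6 was at 18.3, 15.0, 24.7 and 24.5 CPM and HOXB2 at 9.5, 8.84, 13.1 and 13.7 CPM, both lower in 0252 and 0253 than in 0254 and 0255. HOXB5 (9.92, 8.92, 12.0 and 11.3 CPM), HOXB7 (15.1, 13.2, 16.2 and 18.3 CPM) and HOXA10 (3.51, 2.57, 3.17 and 3.68 CPM) stayed under a ratio of 1.5. Of 11 HOX genes compared, 7 had a ratio of at least 1.5 (HOXA7, HOXA9, HOXB2, HOXB3, HOXB6, HOXB8 and HOXB9), where 10.8% of all genes did. Their median ratio was 1.64 against 1.15 for all genes. Without hashtag 0253, which was lowest for most of them, 3 of the 7 were left. No share of all genes is given for that setting.

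Within gates the hashtags were closer for some genes. In the CD34/GATA2 gate 5 of 11 genes had a ratio of at least 1.5 (13.4% of all genes), namely HOXA7, HOXA9, HOXB3, HOXB8 and HOXB9, and the median ratio was 1.34 against 1.19. The interval of HOXA7 included 1 (ratio 1.71, 0.93 to 3.14), and those of the other 4 did not. HOXB3 was at 7.77, 9.24, 14.2 and 15.5 CPM there, a ratio of 2.0 (1.54 to 2.59), and kept the order seen in all cells. HOXB9 was at 44.6, 34.0, 46.3 and 52.9 CPM, so that 0252 and 0254 no longer differed beyond their intervals. In the SPINK2 gate 5 of 11 also passed, but so did 31.0% of all genes (median ratio 1.45 against 1.31), so that count is a description only. The 5 were HOXA7, HOXA9, HOXA10, HOXB2 and HOXB7. Of these, HOXA10 (ratio 1.6, 0.98 to 2.66) and HOXB2 (1.56, 0.968 to 2.53) had intervals that included 1. The order of the hashtags changed for HOXA7 and HOXA9. Both were highest in 0255 in the CD34/GATA2 gate, but highest in 0252 and lowest in 0255 in the SPINK2 gate. HOXB3 was even there, at 8.4, 9.36, 8.4 and 8.87 CPM. HOXA in SPINK2 cells was highest in hashtag 0252 at 66.7 CPM, against 36.1, 40.3 and 31.7 CPM.

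In cells past no gate the summed HOXB level differed 2.37-fold between hashtags (2.2 to 2.55). It was 72.1, 66.5, 144.5 and 157.7 CPM in these cells, HOXB9 was at 12.8, 11.3, 41.5 and 42.7 CPM and HOXB8 at 3.9, 3.54, 13.0 and 16.1 CPM. Hashtags 0252 and 0253 did not overlap with 0254 and 0255 for these, with no share of all genes given beside this. In the same cells the 4 granule markers MPO, AZU1, PRTN3 and CTSG summed to 5866, 5730, 1758 and 1344 CPM, the mast cell and eosinophil markers to 521.0, 500.3, 273.5 and 195.9 CPM and the lymphoid markers to 32.5, 35.9, 71.3 and 80.6 CPM. The collagen gate's markers summed to 10.3, 10.3, 15.3 and 23.7 CPM. Over all kept cells the lymphoid markers did not move together. There CD3E was at 6.58, 5.2, 21.5 and 27.5 CPM and CD79A at 8.81, 7.46, 13.7 and 12.1 CPM. CD7 was at 30.0, 25.9, 30.6 and 30.9 CPM and IL7R at 2.89, 12.2, 4.75 and 5.12 CPM. Granule markers thus moved opposite to HOXB, and their part in the difference was not tested; a lower HOX level per cell and more cells of a low-HOX type cannot be told apart in these sums.

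**Figure D5:**
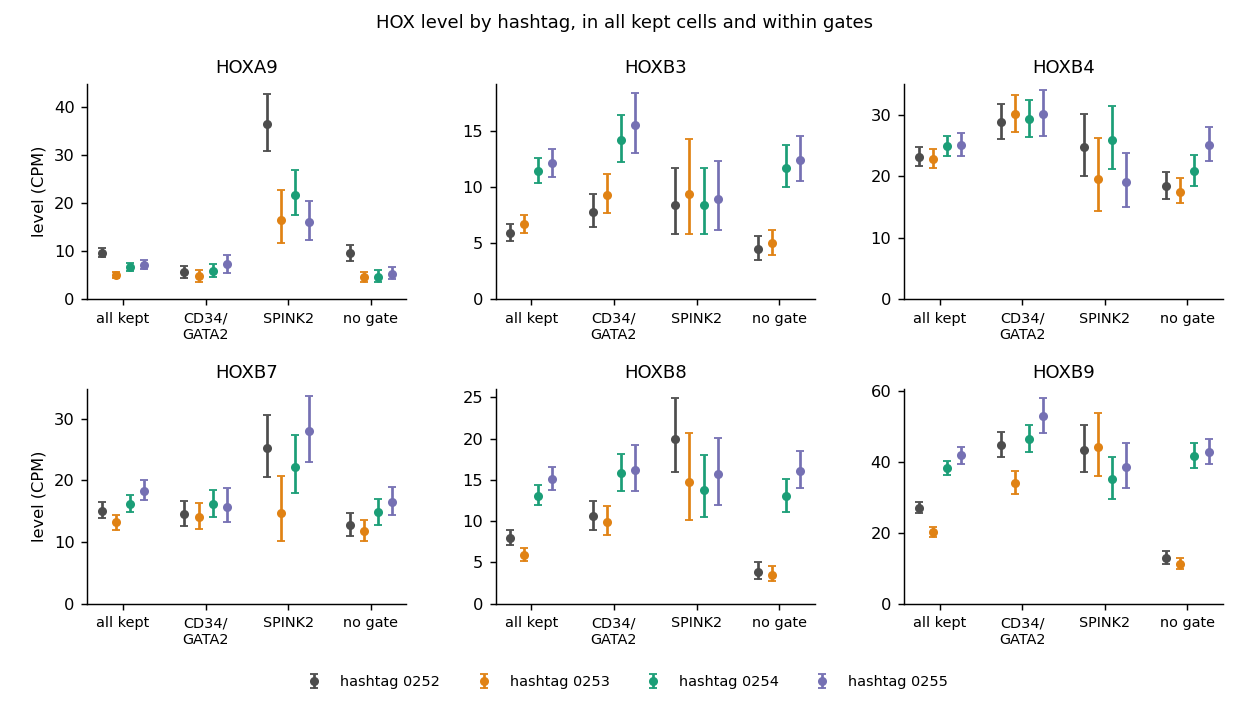
Level (CPM, with 95% counting intervals) of 6 HOX genes in hashtags 0252 (grey), 0253 (orange), 0254 (green) and 0255 (purple), in all kept cells, 2 gates and cells past no gate. HOXB8 and HOXB9 separate the hashtags more in cells past no gate than in the other groups drawn. HOXA9 is highest in 0252 in each group except the CD34/GATA2 gate, and HOXB4 stays between 17.5 and 30.1 CPM throughout.

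The homeodomain cofactors of HOX proteins and the lists below were compared by the same 2-fold rule. Over all genes, 10.4% were lower and 12.0% higher in C1Q cells, 9.68% and 11.3% in ELANE cells and 5.92% and 4.86% in globin cells. The shares were 14.2% and 19.5% in collagen, 10.7% and 17.5% in PF4/PPBP and 3.49% and 2.50% in SPINK2 against CD34/GATA2 cells. The lists are short, so their counts are a description only and are to be read beside these shares. Of 9 PBX, MEIS and PKNOX genes, all found, 3 of 6 compared were at least 2-fold lower in C1Q cells and 3 of 6 in ELANE cells, with none higher. MEIS1, which encodes a partner of HOXA9, was at 18.2 CPM in the progenitor gates, 8.88 in C1Q, 5.16 in ELANE and 50.0 in globin cells. It was 1 of 2 cofactors, of 6 compared, that were at least 2-fold higher in globin cells, where HOXB7, HOXB8 and HOXB9 were lower. MEIS2 separated the progenitor gates in the direction opposite to HOXA, with 5.11 CPM in SPINK2 and 33.0 CPM in CD34/GATA2 cells, and 2 of 6 cofactors were at least 2-fold lower in SPINK2 cells. In collagen cells 3 of 7 were higher, MEIS2 at 193.1 CPM, MEIS3 at 29.8 CPM and PBX3. In the PF4/PPBP gate 3 of 7 were higher and 2 lower. With 9 cells, that gate was too small for its counts to be read, here and in the lists below.

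Upstream activators of HOX genes were compared in the same way. Of 12 CDX, KMT2A (MLL) complex and partner genes, 2 of 8 compared were at least 2-fold lower in C1Q cells (MEN1 and MLLT3), 2 of 8 in ELANE cells (PSIP1 and MLLT3) and none between globin and progenitor, PF4/PPBP and progenitor or SPINK2 and CD34/GATA2 cells. MEN1 encodes menin, which tethers KMT2A to HOX promoters, and was at 33.1 CPM in progenitor cells and 14.3 CPM in C1Q cells. MLLT3, a regulator of stem cell maintenance, was at 22.6, 8.66 and 8.38 CPM in progenitor, C1Q and ELANE cells, and KMT2A itself was not 2-fold different in any gate. In collagen cells 5 of 9 were lower and 1 higher. That 1 was CDX2, at 14.2 CPM against 0.0159 CPM, which is named although it did not reach 20 CPM.

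Polycomb genes, which keep silent HOX genes repressed, stayed within 2-fold with few exceptions. Of 11 genes, 1 of 11 compared was higher and 1 lower in C1Q cells, 1 of 10 was lower in each of the ELANE, globin and collagen gates, 1 of 10 was higher in the PF4/PPBP gate, and none of 10 differed between SPINK2 and CD34/GATA2 cells. The gene lower in collagen cells was SUZ12, at 36.5 CPM against 77.2 CPM. Of 11 retinoic acid genes, 1 had no UMI, and RXRA, a nuclear receptor, was at 25.7 CPM in progenitor, 55.6 in C1Q, 65.7 in ELANE and 9.27 in globin cells. The counts were 2 of 4 higher in C1Q, 1 of 3 higher in ELANE and 1 of 3 lower in globin cells. They were 3 of 5 higher in PF4/PPBP and 2 of 5 higher in collagen cells, and none of 3 differed between the progenitor gates. The PF4/PPBP count rests on few UMIs, as 1 UMI in its 9 cells is 5.32 CPM. CRABP2, a carrier protein of retinoic acid, was at 206.5 CPM in collagen cells against 0.366 CPM in the progenitor gates.

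Non-coding RNAs of the HOX loci did not always go with the clusters they lie in. Of 16 such features, 1 had no UMI, and only HOXB-AS3 reached 20 CPM in a gate. HOXB-AS3 was at 11.8 CPM in CD34/GATA2, 16.3 in SPINK2, 1.71 in C1Q, 1.29 in ELANE, 1.43 in globin and 21.6 in collagen cells. In globin cells it was thus low although HOXB was at 108.5 CPM. HOTAIRM1, which lies in HOXA and was also chosen after its values were seen, was higher in C1Q cells (4.81 CPM) than in the progenitor gates (0.286 CPM), opposite to HOXA itself. By hashtag HOXB-AS3 was at 5.47, 5.38, 14.1 and 21.9 CPM, with 0252 and 0253 below 0254 and 0255 as for HOXB8 and HOXB9. HOXA10-AS, chosen after its values were seen, was the 1 of 3 that differed between the progenitor gates, with 15.4 CPM in SPINK2 and 6.16 CPM in CD34/GATA2 cells. In the other comparisons 1 of 4 was higher and 2 lower in C1Q, 3 of 3 lower in ELANE, 2 of 3 lower in globin, 3 of 6 higher in collagen and none of 3 in PF4/PPBP cells. The 4 sums of these RNAs by hashtag in CD34/GATA2 cells were 15.4, 17.8, 26.6 and 35.4 CPM.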

How the data were processed

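The authors deposited UMI counts per gene and hashtag counts per barcode from 1 droplet library (3' chemistry), which per the submitters' processing notes came from Cell Ranger 6.0.1 and hg19. Replicates were not kept apart: 3 wells per condition were combined under 1 hashtag. From these counts, barcodes with a call for a single hashtag were kept (1339 barcodes with more than 1 hashtag and 1009 with none were left out), with at most 36000 UMIs, 6000 genes and 18% mitochondrial UMIs. Depth was 142110950 UMIs in 7550 cells.

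Lineage gates required at least 10 UMIs of COL1A1, COL1A2 and COL3A1 together (collagen), 20 of globin genes, 10 of PF4 and PPBP, 5 of ELANE, or 10 of C1QA, C1QB and C1QC, and cells past more than 1 were set aside as mixed. Of cells past none, those with at least 5 SPINK2 UMIs formed the SPINK2 gate and, of the rest, those with at least 1 UMI each of CD34 and GATA2 the CD34/GATA2 gate. Levels are UMIs per 1000000 UMIs of the pooled cells (CPM), with exact Poisson 95% intervals, and shares have exact Clopper-Pearson intervals. Both cover counting error only. Genes with a mean of at least 2 CPM over the groups compared were counted at a 2-fold difference, or at a ratio of 1.5 between hashtags. With 1 library no test was made. Where a group had no UMI, the fold is a bound at 3 counts over the group. Shares of cells were repeated with cells thinned to 5000 UMIs.

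Members with at least 200 UMIs, or 20 CPM in a gate, were described in full, and genes of other lists were named if they reached 20 CPM in a gate and differed 2-fold. Members and lists were chosen with earlier results of these data known. Alternatives were a 10% mitochondrial limit, no limits, doubled thresholds, thresholds per 10000 UMIs, another denominator, thinning, Scrublet doublets removed, other level floors and each hashtag left out. Halved thresholds and the collagen gate left out were added after seeing the data. Positions came from GENCODE on GRCh37 (39 of 40 identifiers found) and promoters from RefSeq. Scripts were tested on simulated data and run in Python 3.11.15 (scanpy 1.11.5 for Scrublet, matplotlib 3.10.9 for plots, scipy 1.17.1 for intervals, numpy 2.4.6 and pandas 2.3.3). Values of 1 member and 1 list gene are not reported here, though the counts include them.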

Additional observations from a re-analysis of the deposited data

Results flagged for a closer look

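Barcodes without a hashtag call entered no comparison, and their HOX level was above that of the kept cells. Of 1009 such barcodes, 809 were within the limits on UMIs, genes and mitochondrial share, and their summed HOX level was 214.0 CPM (206.1 to 222.2), against 146.3 CPM (144.3 to 148.3) in kept cells. HOXB was at 201.6 CPM (193.9 to 209.5) against 130.7 CPM (128.8 to 132.6), while HOXA was at 12.1 CPM (10.3 to 14.2) against 13.9 CPM (13.3 to 14.5).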

How the results depend on the processing

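With 1 library no test was made and so no replicate block was fitted. Each of the 4 hashtags holds both sides of a gate comparison, and the ratios of the summed HOX level within hashtags are given above for C1Q and ELANE. For globin the level in the progenitor gates was 1.69 times that of the gate in pooled cells. Within hashtags 0252, 0253, 0254 and 0255 it was 1.68, 1.43, 1.93 and 1.71 times. The PF4/PPBP gate held no HOX UMI in 0254 and 0255, so it gave no ratio there. The log2 ratio of the summed HOX level, progenitor gates over a lineage gate, kept its direction under each alternative that gave a value. With at most 10% mitochondrial UMIs, which left 736 cells, it was 1.75 for C1Q (1.22 as reported), 3.51 for ELANE (2.76) and 1.39 for globin (0.75), and the PF4/PPBP gate held 1 cell and gave no value. For globin it was 0.90 with gates per 10000 UMIs and 0.58 with halved thresholds. The number of HOX genes with a hashtag ratio of at least 1.5 was 7, and 23 with no level floor. Of the 40 HOX genes, 22 had only 1 to 199 UMIs, so the 23 are a description only. The causes were not tested. With each hashtag left out in turn, the number at a ratio of 1.5 with the floor ranged from 3 (without 0253) to 7. The log2 ratio ranged from 1.20 to 1.24 for C1Q, 2.69 to 2.94 for ELANE, 1.77 to 2.37 for PF4/PPBP and 0.69 to 0.83 for globin. The genes apart in the collagen gate ranged from 12 to 14 and the genes at 2 CPM in a gate from 22 to 25. No share of all genes is given beside the 23 or these ranges of counts. The limit of 10% also ended the 2-fold call of HOXA9 between the SPINK2 and CD34/GATA2 gates. Of values for single genes and clusters, 48 moved beyond their interval, 372 did not and 0 reversed. Depth limits the ELANE (43 HOX UMIs) and PF4/PPBP (9) gates most.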
